A study of Rattus norvegicus with 4 samples.

Results

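The genes described here encode proteins that form, limit and dissolve blood clots and that are made by hepatocytes and secreted into plasma: the 3 chains of fibrinogen (Fga, Fgb, Fgg), prothrombin (F2), factor X (F10), kininogen (Kng1), protein C (Proc), antithrombin (Serpinc1) and plasminogen (Plg). They were chosen by name, as all probe sets whose platform annotation gave a single symbol equal to that of a member, older symbols included. Of the 9 listed genes, 8 were found, on 13 of the 15923 probe sets. Antithrombin had no probe set by this rule and was not analysed here. No probe set was annotated to Kng1 alone. Kininogen was therefore represented by 3 probe sets of Kng2l1, a neighbouring kininogen gene that has carried the symbol Kng1, and every value given for Kng2l1 belongs to that gene.

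Liver RNA came from 4 untreated male Sprague-Dawley rats of 10 to 12 weeks, an outbred strain with no engineered allele, and each rat was hybridised to its own Affymetrix array. The rats formed 1 group, so no condition was compared, and animal and array cannot be told apart. Values are log2 signals, and a mean is given ± SD over n = 4 rats. The number of arrays limits the precision. Array medians were 8.11 in each rat, so the arrays had been scaled to each other. Hepatocyte markers were present, with all 9 measured ones above the background level defined below, against 6.74% of all named genes. Among them, albumin (Alb) had 15.06 ± 0.02.

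A clot forms when factor X, activated, cuts prothrombin to thrombin, and thrombin cuts fibrinogen so that it polymerises to fibrin. High molecular weight kininogen carries prekallikrein in the contact pathway, which can also start clotting. Protein C, activated by thrombin, degrades the cofactors of this cascade, antithrombin inhibits thrombin and activated factor X, and plasmin, cut from plasminogen, digests fibrin. Prothrombin, factor X and protein C share a domain of glutamates that are carboxylated with vitamin K in the hepatocyte before secretion.

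The fibrinogen genes lie side by side on chromosome 2, with Lrat and Plrg1 as the nearest protein-coding genes on either side. The 250 bases before the annotated start are shown for these chains and for prothrombin and protein C. That pair was picked after its values were seen, as it ordered the rats alike, and regulation in common was not tested. The windows shown are taken from RefSeq (build GRCr8) and run 5′ to 3′ on the gene's strand. Capitals mark the letters GTTAAT on either strand, a half-site of the hepatocyte factor HNF1, and CTGGGAA on either strand, a core known from interleukin 6 responsive promoters.
Fga, chr2:170671919-170672168, plus strand: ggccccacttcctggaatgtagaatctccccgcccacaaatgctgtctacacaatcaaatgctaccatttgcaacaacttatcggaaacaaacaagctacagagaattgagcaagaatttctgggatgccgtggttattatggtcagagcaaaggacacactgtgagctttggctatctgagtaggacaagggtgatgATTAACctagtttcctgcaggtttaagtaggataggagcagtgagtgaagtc
Fgb, chr2:170700876-170701125, minus strand: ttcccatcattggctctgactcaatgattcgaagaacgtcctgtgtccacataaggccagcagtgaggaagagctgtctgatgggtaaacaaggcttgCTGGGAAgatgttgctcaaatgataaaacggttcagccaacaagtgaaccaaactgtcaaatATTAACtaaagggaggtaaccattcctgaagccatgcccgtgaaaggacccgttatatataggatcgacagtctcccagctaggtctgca
Fgg, chr2:170652833-170653082, plus strand: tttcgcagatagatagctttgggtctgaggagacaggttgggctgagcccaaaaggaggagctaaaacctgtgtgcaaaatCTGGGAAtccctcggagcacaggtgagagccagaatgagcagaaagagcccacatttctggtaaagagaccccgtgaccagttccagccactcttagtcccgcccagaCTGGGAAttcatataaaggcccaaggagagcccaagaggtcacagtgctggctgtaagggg
F2, chr3:98065247-98065496, minus strand: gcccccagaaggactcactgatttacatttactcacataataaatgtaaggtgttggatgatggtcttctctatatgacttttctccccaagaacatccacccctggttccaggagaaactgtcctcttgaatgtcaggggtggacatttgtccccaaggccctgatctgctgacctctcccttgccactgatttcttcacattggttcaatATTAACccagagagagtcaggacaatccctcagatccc
Proc, chr18:24048942-24049191, minus strand: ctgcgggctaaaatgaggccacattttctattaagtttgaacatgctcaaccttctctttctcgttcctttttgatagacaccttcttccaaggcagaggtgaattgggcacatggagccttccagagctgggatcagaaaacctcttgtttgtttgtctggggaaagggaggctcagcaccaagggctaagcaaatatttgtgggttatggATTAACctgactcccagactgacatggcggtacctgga

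Positions count back from -1, the last base before the start. The half-site lay at -52 to -47 in Fga, at -90 to -85 in Fgb and at -38 to -33 in both F2 and Proc, each time on the minus strand. It was also in the window of Plg, at -67 to -62, and so in 5 of 10 genes (the 9 listed and Kng2l1), against 7.13% of 27457 genes and 6.45% of their 33469 promoters of the same length. The letters CTGGGAA were found at -152 to -146 in Fgb and at -169 to -163 and -61 to -55 in Fgg. They were in 6 of the 10 genes (Fgb, Fgg, Plg, Serpinc1, Kng1, Kng2l1), against 10.2% of genes and 9.56% of promoters. The C/EBP core TTGCNNAA was in 5 of the 10 (Fga, Fgb, Serpinc1, Kng1, Kng2l1), against 9.99% of genes and 9.22% of promoters. Kng1 and Kng2l1 are closely related copies, so they do not count as separate cases in either number. The FOXA core TGTTTAC was in 1 (Fgb), against 3.54% of genes and 3.21% of promoters, and the TATA box TATAAA in 1 (Fgg), against 14.1% and 12.9%. The HNF4 core CAAAGTCCA was in 0, against 0.393% of genes and 0.338% of promoters. No 2 of these letter strings shared a base in the windows of the 5 genes shown. The motifs were chosen with the promoters at hand, and a match of letters is a description of the window only.

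All 8 measured genes gave a signal above background, against 6.74% of the 10412 named genes. Background, a log2 signal of 10.22, was set by 41 genes typical of nerve, muscle, germ or eye tissue: the 95th percentile over the means of their 53 probe sets. A gene was read from its brightest probe set. That level rests on Myh1, a myosin with 4 of 5 probe sets far above the others, and was 8.24 without it. Of the 13 probe sets, 9 lay above 10.22, against 5.66% of all probe sets. A signal depends on the probes that read it, so levels of separate probe sets below are not amounts of transcript set against each other.

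**Figure D1:**
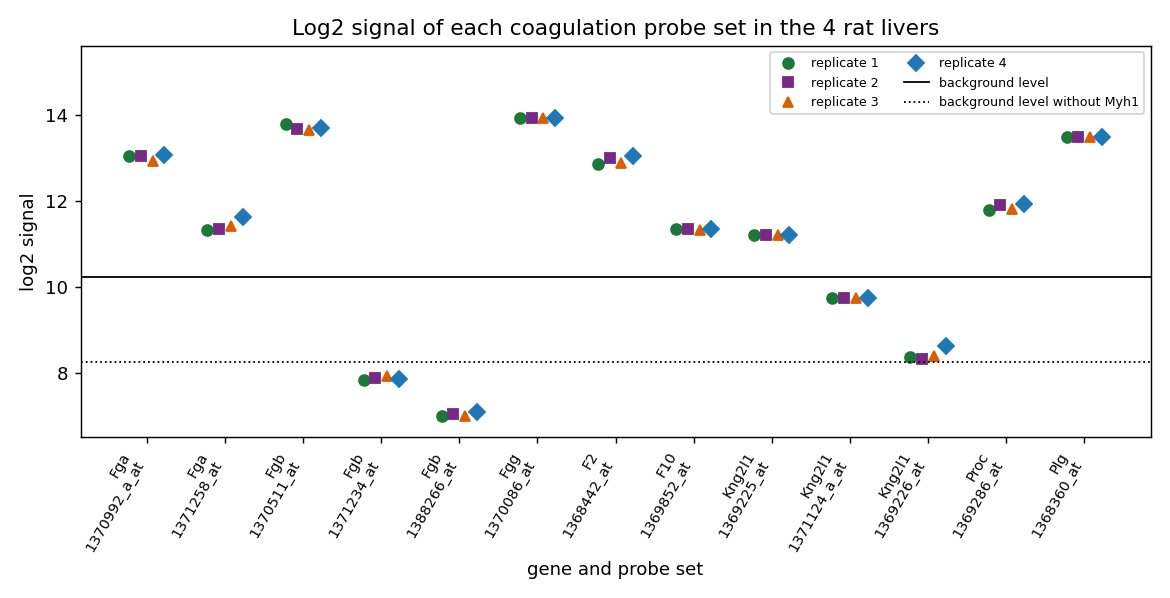
Log2 signal (vertical axis) of the 13 probe sets (horizontal axis) in each of the 4 rats, with the background level of 10.22 as a solid line and the level without Myh1, 8.24, as a dotted line. Every gene has a probe set above the solid line, and 4 probe sets, 2 of Fgb and 2 of Kng2l1, lie below it.

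Fibrinogen is a hexamer of paired alpha, beta and gamma chains, and its 3 genes gave strong signals in every rat. Fga, the alpha chain, had log2 signals of 13.03, 13.03, 12.92 and 13.06 in replicates 1 to 4 on its brighter probe set, a mean of 13.01 ± 0.06. Fgb, the beta chain, had 13.79, 13.67, 13.64 and 13.70, a mean of 13.70 ± 0.06. Both were lowest in replicate 3, while Fga was highest in replicate 4 and Fgb in replicate 1. The highest rat exceeded the lowest 1.10-fold for Fga and 1.11-fold for Fgb. Fgg, the gamma chain, had 13.93 in every rat, equal to within 0.001, and such probe sets are called flat here. The SD of Fgg was 6.7e-07 log2, against 0.06 for Fga and for Fgb. The source of such flatness was not tested, and the SD of a flat probe set is not read as a measure of the rats.

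The further probe sets of the fibrinogen genes differed from these. A further probe set of Fga had 11.32, 11.35, 11.41 and 11.62, with replicate 4 highest as on the brighter one but replicate 1 lowest. Its range of 0.29 log2, or 1.23-fold, was the widest of the 9 probe sets above background. For Fgb, both further probe sets lay below either background level, at 7.87 ± 0.04 and 7.02 ± 0.04. Fgb is thus called above background from 1 of its 3 probe sets.

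Of the proteases of the common pathway, prothrombin differed more between rats than factor X. F2 had log2 signals of 12.850, 12.996, 12.885 and 13.041 in replicates 1 to 4, a mean of 12.94 ± 0.09 and a 1.14-fold difference between the outer rats. F10 had 11.33 in replicates 1, 2 and 4 and 11.32 in replicate 3, a mean of 11.33 ± 0.01. Set among the 200 probe sets nearest in mean signal that were not flat, the SD of F2 stood at percentile 57.5 and that of F10 at 0.50. Fga, Fgb and Proc stood between percentiles 41.0 and 43.5. After quantile normalization the SD was 0.081 for F2 and 0.039 for F10, so the small SD of F10 depends on the processing.

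Protein C, the anticoagulant zymogen, ordered the rats as prothrombin did. Proc had 11.79, 11.91, 11.80 and 11.92 in replicates 1 to 4, a mean of 11.86 ± 0.07. In both genes replicate 1 was lowest, followed by replicates 3, 2 and 4, and their deviations from their own means differed by at most 0.03 log2. For comparison, the deviations of Fga and Fgb differed by up to 0.07. In Proc, replicates 1 and 3 lay close together, as did replicates 2 and 4. The pair was noticed after the values were seen, and with 4 rats no correlation was computed. Plasminogen, from which the fibrin-digesting protease is cut, was flat at 13.49.

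The kininogen copy Kng2l1 was read from probe sets that disagreed in level. Whether it makes the high molecular weight kininogen of the contact pathway was not examined. Kng2l1 had a flat signal of 11.21 on the brightest, a flat 9.73 on the next, which is above background only without Myh1, and 8.36, 8.33, 8.40 and 8.62 on the dimmest. On the dimmest, replicate 4 was highest, and its SD of 0.13 stood at percentile 91.0 among probe sets of like signal. The kininogen genes of the rat are closely related copies, so these probe sets may also bind transcripts of Kng1 and Kng2. How far they do was not tested.

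**Figure D2:**
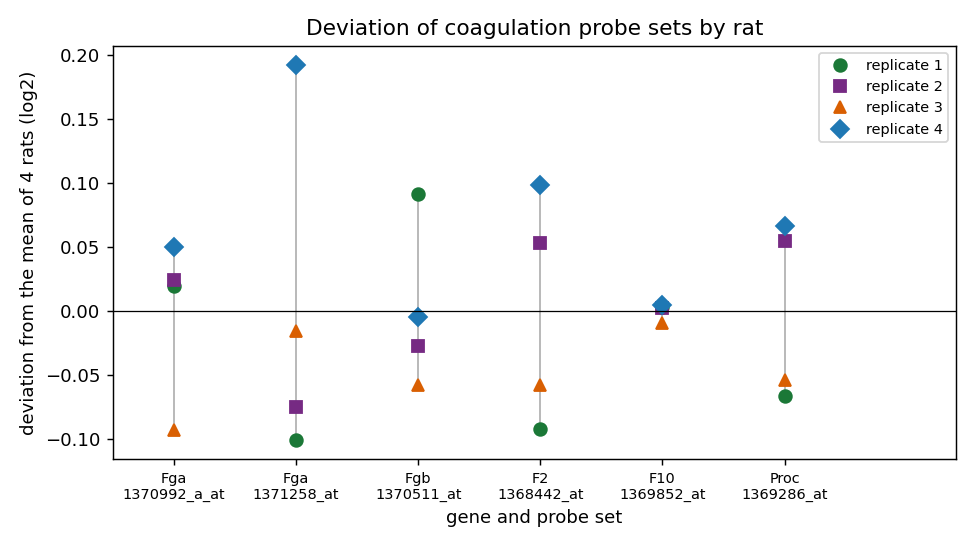
Deviation of each rat from the mean of the 4 rats (vertical axis, log2) for the 6 coagulation probe sets that were above background and not flat (horizontal axis), with lines from the lowest to the highest rat. F2 and Proc order the rats alike, Fgb alone is highest in replicate 1, and F10 spans 0.01.

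Of the 8 genes, 3 were flat (Fgg, Plg and Kng2l1) and 5 were not, while 103 of the 702 named genes above background (14.7%) were flat. The order of the rats therefore rests on Fga, Fgb, F2, F10 and Proc. Replicate 3 was lowest in 3 of these 5, against 16.0% of 599 genes above background and not flat, and in all 5 with replicate 1 left out, against 26.5% of the 599 in that setting. Replicate 4 was highest in 4 of them, against 22.9% of the 599. Among the 256 such genes at least as bright as the dimmest of the 8 genes, 20.3% were lowest in replicate 3. Among the 35 with a mean signal of at least 13, which include Fga and Fgb, 34.3% were. The deviations were small, with a median over the 5 genes of -0.06 in replicate 3 and 0.05 in replicate 4. Replicates 3 and 4 were picked from these same values, as the rats most often lowest and highest in these genes. A count above the share is thus partly built in by the choice. These counts describe 4 arrays, and 5 genes of the same livers are not replicates.

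Markers of other cells were compared with this order, and in bulk tissue fewer cells of a type and less RNA per cell cannot be told apart. The 8 stellate cell markers had a mean log2 signal of 8.37 in replicate 3 and of 8.55 to 8.68 in the rest, with the collagen Col3a1 at 10.23 there and 10.80 to 11.15 elsewhere. Col1a1 and Reln were lowest there too, while Acta2 was highest in replicate 3, Pdgfrb was lowest in replicate 1, and Des, Lrat and Rgs5 were flat. Of the 8 markers, 1 (Col3a1) was above background and the rest, Lrat and Pdgfrb included, were not. The mean signal of the 9 hepatocyte markers was lowest in replicate 1 (13.37, against 13.55 to 13.64 in the others). Tat (9.52 there, 10.30 to 11.10 elsewhere) and Apoa1 (12.34 there, 12.92 to 13.03 elsewhere) differed most. The median deviation of the 9 in replicate 1 was only -0.015. Of the 7 that were not flat, 5 were lowest in replicate 1, against 31.9% of the 599 genes above background and not flat. Ahsg and albumin were lowest in replicate 3 (albumin 15.04, against 15.06 or more in the others). The hemoglobin chain Hbb, a marker of blood left in the tissue, had 11.913, 11.270, 11.644 and 11.004 in replicates 1 to 4. It was the 1 of 6 blood cell markers above background. Kupffer cell markers were above it for 1 of 6 (Clec4f) and endothelial markers for 0 of 7. None of the 3 platelet markers measured (Pf4, Ppbp, Itga2b) was above background, and their mean signal ran from 8.14 to 8.15. Of all named genes, 6.74% were above that level. Without Myh1 in the background list, 6 of 6 Kupffer cell, 4 of 7 endothelial and 4 of 8 stellate cell markers were above background. So were 2 of 6 blood cell and 1 of 3 platelet markers, against 50.7% of all named genes. The part of other cells in the order of the rats was not tested.

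The spread of the clotting genes between rats was small in size. The SDs of the 5 genes that were not flat had a median of 0.064 log2, against 0.087 over the 599 such genes above background, and 51.8% of those 599 had an SD no larger than that of F2. With flat genes counted at about 0, which lowers both values, the medians were 0.035 over the 8 genes and 0.071 over all 702. The median over the 8 genes was then 0.0086 without replicate 3 and 0.017 without replicate 1. Single rats set the spread of 3 genes: without replicate 3 the SD was 0.016 for Fga and 0.00091 for F10, and without replicate 1 it was 0.027 for Fgb.

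**Figure D3:**
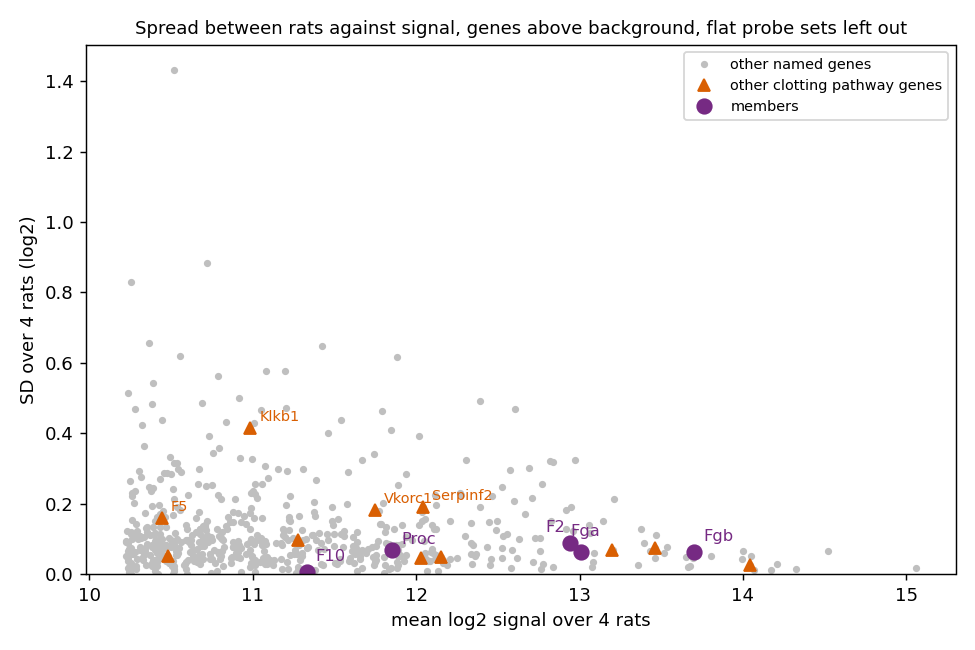
SD over the 4 rats (vertical axis, log2) against mean log2 signal (horizontal axis) for genes above background that were not flat, each from its brightest probe set. The 5 coagulation genes lie between 0.01 and 0.09, while Klkb1 lies at 0.41.

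The wider pathway was described from a list of 51 further genes, chosen with earlier results of these arrays known. Of these, 37 had a probe set of their own, and 15 were above background, or 40.5%, against 6.74% of all named genes. Without Myh1 in the background list, 24 were above it, or 64.9%, against 50.7% of all named genes. By role, 2 of 6 clotting factors and cofactors were above background, 8 of 14 anticoagulants and carriers, 3 of 10 fibrinolysis genes, and 2 of 7 genes of the vitamin K cycle and of factor export. Factors VII, VIII, IX, XI and XII were not analysed here.

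The 2 clotting factors and cofactors above background were F5 and Klkb1. F5, factor V, the cofactor of activated factor X, had 10.21 in replicate 1 and 10.49 to 10.55 in the others. Klkb1, prekallikrein, which high molecular weight kininogen carries, had 11.48, 10.74, 10.56 and 11.17 in replicates 1 to 4, a 1.89-fold difference. Its SD of 0.41 stood at percentile 94.0 among probe sets of like signal, and replicates 1 and 4 were above replicates 2 and 3. Tissue factor (F3), factor XIII A chain (F13a1), von Willebrand factor (Vwf) and Fgl2 were not above background, and Fgl2 at 8.56 was above it without Myh1.

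The anticoagulants above background comprised direct inhibitors and plasma proteins with a looser link to clotting. Heparin cofactor II (Serpind1), which inhibits thrombin, had 12.15 ± 0.05 and protein S (Pros1), the cofactor of activated protein C, 10.48 ± 0.05. Serpina10, the protein Z-dependent inhibitor of activated factor X, was flat at 11.43, and the C1 inhibitor Serping1, which also blocks contact proteases, was flat at 12.04. Ambp, the precursor of the inhibitor bikunin, and Apoh, a phospholipid-binding glycoprotein, were flat too, at 13.97 and 13.72, and Itih3 and Itih4, heavy chains of inter-alpha-inhibitors, had 14.04 ± 0.03 and 13.46 ± 0.07. A2m, alpha-2-macroglobulin, a broad protease inhibitor that rats make in the acute phase, was below background at 8.64 ± 0.65, though above it without Myh1. It had 7.93, 9.32, 9.06 and 8.26 in replicates 1 to 4, so replicates 2 and 3 lay above replicates 1 and 4.

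For fibrinolysis, the genes above background were Hrg, histidine-rich glycoprotein, which binds plasminogen, at 13.20 ± 0.07, Serpinf2, the main plasmin inhibitor, at 12.04 ± 0.19, and Cpb2, a carboxypeptidase that slows fibrin digestion, at 12.03 ± 0.05. Serpinf2 had 11.80 in replicate 1 and 12.26 in replicate 2, its lowest and highest rat. The plasminogen activators Plat and Plau, at 7.82 and 8.12, were below either background level. The vitamin K cycle was represented by Vkorc1, the reductase that warfarin blocks, at 11.75 ± 0.18, and export by Mcfd2, a cargo receptor subunit for factors V and VIII, at 11.27 ± 0.10. Ggcx, the carboxylase that acts on prothrombin, factor X and protein C, had 9.46 ± 0.03, above background only without Myh1. Nqo1, a quinone reductase that can reduce vitamin K, had 9.94 in replicate 1 and 7.91 to 8.48 in the others, at a mean of 8.64 below background but above it without Myh1.

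**Figure D4:**
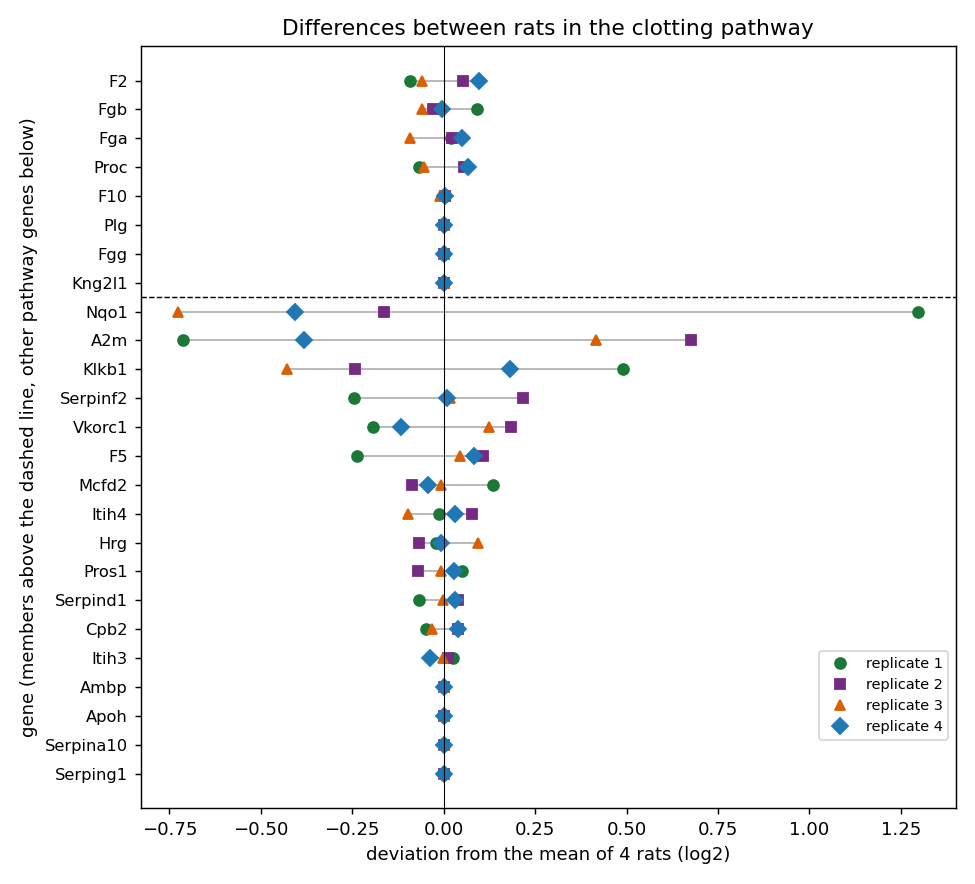
Deviation of each rat from the mean of the 4 rats (horizontal axis, log2) for the 8 coagulation genes (above the dashed line) and for the other pathway genes that were above background or had a range of at least 0.5 log2 (below it), 1 row a gene. Klkb1, A2m and Nqo1 have ranges of 0.92 to 2.03 log2, while the widest of the 8 genes, F2, spans 0.19.

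A range of at least 0.5 log2 between rats was found in 3 of the 37 pathway genes (Klkb1, A2m and Nqo1) and in 0 of the 8 coagulation genes, against 252 of 10412 named genes. No probe set of the 8 genes above background reached a range of 0.3 log2, so no genes of like pattern were sought.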

How the data were processed

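Liver RNA of 4 rats was measured on 4 Affymetrix arrays. The deposited values are log2 signals per probe set, made by the authors with R 2.4.1, affy 1.12.2, GCRMA and RMA per the submitters' processing notes. Which of GCRMA and RMA gave the values is not given in the sources used here. Settings deposited with the scans, of other kinds than signal, name the chip RAE230A and give 1 lot, 1 station and 1 day for all arrays, but a fluidics module of its own for each of the 4, so module and rat cannot be told apart and no batch could be fitted. The labels' protocols name RAE230-2.

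Of the 15923 probe sets, 12789 had 1 gene symbol, 312 several and 2822 none. 12754 were matched by gene number to the GRCr8 gene table, used for names. The 8 genes were found by symbol, Kng1 through an older symbol of Kng2l1. The members and lists were chosen with earlier results of these data known. Probe sets with values equal to within 0.001 were called flat. Background was the 95th percentile of a list of 46 genes of other tissues, of which 41 were measured. The named genes are all members, and genes of each pathway list that were above background or had a range of at least 0.5 log2. Other genes named below background were chosen after their values were seen. No test between groups was made, as there was 1 group. Single rats were flagged with Dixon's outlier ratio at a critical value of 0.829. The SD percentile, the flat call and quantile normalization were tested on simulated data. The background level, the counts by rat and the motif search were not. Python 3.11.15, numpy 2.4.6 and pandas 2.3.3 were used.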

Additional observations from a re-analysis of the deposited data

Results flagged for a closer look

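In replicate 3, F10 had a log2 signal of 11.32, apart from the other 3 rats at 11.33, although the whole range was only 0.01. In replicate 4, the brighter probe set of Stat3, the factor that carries the interleukin 6 signal, had 10.13, against 9.61 to 9.65 in the other rats. The other probe set of Stat3 was also highest in replicate 4, at 9.35 against 9.22 to 9.25. These were 2 of 33 sets of 4 values in which 1 rat stood far from the rest relative to the range, by Dixon's outlier ratio. Chance gives about 5%, so 2 of 33 is near the number that chance alone would give.

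A probe set annotated to 3 kininogen genes (Kng1, Kng2l1 and Kng2) was outside the choice of members and had a mean of 12.37 ± 0.18, above background. It had 12.35, 12.55, 12.12 and 12.45 in replicates 1 to 4, a 1.34-fold difference, with replicate 3 lowest. Which of the 3 genes gave this signal cannot be told from the annotation.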

How the results depend on the processing

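All 8 genes stayed above background at the 90th and 98th percentiles, without Myh1, without probe sets marked s, x or a in their names, and without any 1 replicate. When each gene was read as the median over its probe sets, 6 did, with Fgb and Kng2l1 below the level, and 7 with that median and without Myh1. Of the 37 pathway genes, 15 were above background in the main setting, 24 at the 90th percentile and 24 without Myh1. The count was also 24 without Myh1 and with the median of the probe sets, a setting added after seeing the data. These settings lower the level itself, to 8.26 at the 90th percentile and 8.24 without Myh1. Without Myh1, 50.7% of all named genes were above it, against 6.74% in the main setting. The pathway count was 13 of 37 at the 98th percentile, and 19 of 32 without probe sets marked s, x or a. In that last setting Serpind1, Hrg and Mcfd2 dropped out, yet the count rose from 15, so genes below the main level were counted. S100a10, at 8.45, has to be among the 19, so the level was lower there too. The brightest probe set of Myh1 carries the mark a. The count of 19 therefore does not show how the result depends on the kind of probe set. Shares of all named genes in the other settings are not given here. The median SD of the 8 genes ran from 0.0086 to 0.040 when 1 replicate was left out, lowest without replicate 3 (0.0086) and 0.017 without replicate 1, and was 0.021 with the median of the probe sets. The number of genes lowest in replicate 3 ran from 3 to 5 with 1 other replicate left out (5 without replicate 1), and was 2 with the median of the probe sets and 2 without the probe sets marked s, x or a, where Fga is read from its other probe set. The number highest in replicate 4 ran from 4 to 5, and was 3 after quantile normalization. Among values of single genes, 16 moved by at least their SD and 112 did not. That SD is near 0 for the flat genes Fgg, Plg and Kng2l1, so for them even a tiny shift counts as moved. The mean of Plg, for example, went from 13.4875 to 13.4858 after quantile normalization. These numbers are therefore no measure of how stable the genes are. No paired analysis was possible because there is 1 group. With 1 array per rat, the spread includes the error of the arrays.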

Other observations

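Genes of the interleukin 6 response, which include fibrinogen's partners in the acute phase, were above background for 7 of 14 measured genes, against 6.74% of all named genes, and for 10 of 14 without Myh1, against 50.7%. Haptoglobin (Hp), which binds hemoglobin, had 14.21 ± 0.03, hemopexin (Hpx), which binds heme, 13.81 ± 0.05, and C-reactive protein (Crp) 13.52 ± 0.06. Orm1, an acid glycoprotein, was flat at 12.51, and ceruloplasmin (Cp), the copper carrier, had 12.83 ± 0.15. Hamp, the hormone hepcidin that limits iron uptake, had 13.10, 12.19, 11.97 and 12.30 in replicates 1 to 4. Lbp, which binds bacterial lipopolysaccharide, had 9.89 in replicate 1 and 10.32 to 10.55 in the others. Of the 6 genes that were not flat, 4 (Hp, Hpx, Cp, Hamp) were lowest in replicate 3, against 16.0% of 599 genes above background and 34.3% of the 35 with a mean of at least 13, which include Hp and Hpx. The receptor Il6r had 8.40, 8.84, 8.74 and 9.03 in replicates 1 to 4, at a mean of 8.75 below background but above it without Myh1.

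None of 9 measured hepatocyte identity factors was above background, against 6.74% of all named genes, and 6 of 9 were without Myh1, against 50.7%. Foxa3 had 8.96, 9.31, 9.69 and 8.63 in replicates 1 to 4, and Cebpb 9.67, 9.27, 9.84 and 9.66. The brighter probe set of Onecut1 had 8.30, 7.46, 8.11 and 7.55, and its other probe set had 7.82, 7.45, 7.93 and 7.48, so both were higher in replicates 1 and 3. Of 5 measured thrombin receptors and other targets, which act on platelets and other cells, 0 were above background, against 6.74% of all named genes, and 1 (Itga2b, at 8.31) was without Myh1, against 50.7%.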
